A study of Mus musculus with 24 samples.

Results

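The potassium channel genes of the mouse were followed through cardiac differentiation by chromatin accessibility. They were taken as the protein-coding genes of the mm10 build whose symbol begins with Kcn, which gave 94 of 21631 genes in 21 subfamilies. A peak summit was given to such a gene if it lay inside the gene body, or, if it lay in no protein-coding gene, if that gene body was the nearest within 50 kb. By this rule 3048 of 518537 summits over 12 peak lists belonged to the potassium channel genes, and 72.7% of these lay inside a gene body. At least 1 summit in some list was found for 92 of the 94 genes, and Kcnj13 and Kcnj14 had none. The bodies of the potassium channel genes were long, with a median of 32.7 kb, against 17.3 kb for all genes.

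Accessible chromatin was mapped by ATAC-seq, in which a transposase cuts and tags open DNA, in nuclei of the mouse embryonic stem cell line A2lox.cre, a line built for the insertion of inducible transgenes. All samples were of this single line, and the labels name no transgene, genotype change or drug treatment of any group. The groups were cells in 2i, labelled mouse embryonic stem cell; days 0, 1, 2, 3, 4, 5, 6, 7 and 8 of differentiation (D0 to D8), labelled intermediate of cardiac differentiation; and days 10 and 15 (D10 and D15), labelled cardiomyocyte. There were 2 biological replicates in each of the 12 groups, and the labels name a single peak list for both, so the spread between replicates cannot be read here.

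Potassium channels let potassium leave or enter the cell along its gradient, and so set the resting membrane potential and end the action potential. A channel is built from pore subunits, which open with voltage (Kcna, Kcnb, Kcnc, Kcnd, Kcnh, Kcnq), pass inward current (Kcnj), leak at rest (Kcnk) or respond to calcium or sodium (Kcnma, Kcnn, Kcnt; Kcnu1, a relative of Kcnma1 known from sperm, was counted with them), and from accessory subunits (Kcnab, Kcne, Kcnip, Kcnmb) that tune them. Kcnrg, a gene for a regulator of potassium channels, was counted with the accessory genes. In heart muscle, Kcnd pores carry the transient outward current, Kcnh2 and Kcnq1 the rapid and slow delayed rectifier currents, and Kcnj2 the inward rectifier current of the resting cell.

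The promoters of 6 genes are given first, because their start peaks stand for the patterns found over the lists. In the Kcnh2, Kcne3 and Kcnn3 promoters a peak was absent from 2i, D0 and D1 and present at D10 and D15. The Kcnh2 start in the promoter table lies inside the annotated gene body, and the 5′ end of that body had a peak in all 12 lists. Kcnj5 had a start peak at D2 to D8 alone, Kcnj6 had one from 2i to D8, and Kcnj2 had one in all 12 lists. Each sequence runs 5′ to 3′ from 250 bases before to 50 bases after the start, from RefSeq on GRCm38.p6, the assembly that mm10 names. Capitals mark CG dinucleotides.
Kcnh2 (chr5:24329542-24329841, minus strand): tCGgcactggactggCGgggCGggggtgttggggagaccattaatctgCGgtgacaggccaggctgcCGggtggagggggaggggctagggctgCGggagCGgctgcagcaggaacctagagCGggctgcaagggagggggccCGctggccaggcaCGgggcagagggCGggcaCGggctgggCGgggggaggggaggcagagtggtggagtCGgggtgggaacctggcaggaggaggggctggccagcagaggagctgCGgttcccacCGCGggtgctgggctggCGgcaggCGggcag
Kcne3 (chr7:100178433-100178732, plus strand): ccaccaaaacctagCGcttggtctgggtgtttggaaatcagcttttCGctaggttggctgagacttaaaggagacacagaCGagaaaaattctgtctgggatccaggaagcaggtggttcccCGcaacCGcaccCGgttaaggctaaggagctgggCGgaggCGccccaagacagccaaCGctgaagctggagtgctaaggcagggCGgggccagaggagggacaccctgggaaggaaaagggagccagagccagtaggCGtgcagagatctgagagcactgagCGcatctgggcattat
Kcnn3 (chr3:89519914-89520213, plus strand): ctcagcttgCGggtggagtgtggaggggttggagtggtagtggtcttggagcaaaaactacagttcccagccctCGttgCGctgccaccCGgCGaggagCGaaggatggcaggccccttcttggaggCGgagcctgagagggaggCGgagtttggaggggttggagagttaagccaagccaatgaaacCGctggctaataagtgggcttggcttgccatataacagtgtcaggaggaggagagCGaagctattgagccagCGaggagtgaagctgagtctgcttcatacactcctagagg
Kcnj5 (chr9:32344295-32344594, minus strand): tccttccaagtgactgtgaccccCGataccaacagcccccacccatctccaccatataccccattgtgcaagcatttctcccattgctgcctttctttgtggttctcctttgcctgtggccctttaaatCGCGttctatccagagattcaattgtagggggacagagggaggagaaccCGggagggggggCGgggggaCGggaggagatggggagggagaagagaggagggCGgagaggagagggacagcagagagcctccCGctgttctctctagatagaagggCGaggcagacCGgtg
Kcnj6 (chr16:94997647-94997946, minus strand): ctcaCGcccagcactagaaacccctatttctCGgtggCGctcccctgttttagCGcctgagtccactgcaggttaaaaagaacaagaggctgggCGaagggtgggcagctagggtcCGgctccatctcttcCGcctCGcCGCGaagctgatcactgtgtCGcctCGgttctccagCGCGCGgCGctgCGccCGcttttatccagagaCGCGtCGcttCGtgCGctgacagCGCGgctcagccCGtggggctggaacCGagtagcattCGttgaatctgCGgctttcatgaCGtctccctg
Kcnj2 (chr11:111065914-111066213, plus strand): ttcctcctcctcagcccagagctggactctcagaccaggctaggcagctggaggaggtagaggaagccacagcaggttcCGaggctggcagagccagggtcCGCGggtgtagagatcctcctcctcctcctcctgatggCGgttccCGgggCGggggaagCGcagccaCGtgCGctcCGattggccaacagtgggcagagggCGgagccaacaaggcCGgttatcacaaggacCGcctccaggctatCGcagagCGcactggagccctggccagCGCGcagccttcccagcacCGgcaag
The Kcnj6 promoter held 30 CG dinucleotides, the Kcnh2 promoter 19, the Kcnj2 promoter 18, the Kcne3 promoter 12, the Kcnn3 promoter 11 and the Kcnj5 promoter 10. The letters of the GC box, GGGCGG on either strand, were found 3 times in the Kcnh2 promoter, 2 times each in those of Kcne3, Kcnj5 and Kcnj2, and not in those of Kcnn3 and Kcnj6.

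The lists held between 31324 summits at D1 and 66993 at D7. The read depth is not given in the sources used here. Among peaks enriched 4.9- to 5.1-fold, the median −log10 p, which moves with background coverage, ran between 7.69 at 2i and 11.6 at D3. A peak absent from a list means one not called there. The labelled cell types were set against the start peaks of marker genes. Of 8 pluripotent cell markers 7 had a start peak at 2i (87.5%, against 57.4% of all genes) and 3 at D15 (37.5%, against 57.7%). In between the number did not fall steadily, with 4 at D0, 6 at D1 and 7 in each of the D2 and D3 lists. Of 12 cardiomyocyte markers 2 had a start peak at 2i, 7 at D5, 4 at D6 and 6 in each of the D7 and D8 lists. The D10 and D15 lists each had one at 4 of these markers (33.3%, against 58.5% and 57.7% of all genes). Tnnt2, the cardiac troponin T gene, had a start peak from D5 on. Myh6, Tnni3 and Myl2, which encode proteins of the contractile filaments, had a start peak in no list. At D15 a start peak was present at 5 of 6 smooth muscle and 5 of 6 fibroblast and epicardial markers (83.3% each, against 57.7% of all genes). It was present at 4 of 8 neuronal and 2 of 6 endothelial markers, shares below that of all genes. Of the markers with such a peak at D15, Myh11, Tagln, Col1a1, Dcn, Wt1 and Snap25 have no start in the promoter table. For them a summit within 1 kb of either gene end counted, so it may not lie at the start. The D15 list thus also holds peaks at starts or gene ends of genes that mark other cell types. Their share exceeded that of all genes for the smooth muscle and the fibroblast and epicardial markers only. These sets are small, and the differences were not tested. In such bulk samples a peak carried by fewer cells and a weaker peak in every cell cannot be told apart.

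The share of potassium channel genes with an open start was highest between D2 and D8. A start peak meant a summit within 1 kb of an annotated start, whichever gene the summit was given to. For the 25 of the 94 genes without a start in the promoter table, a summit within 1 kb of either gene end counted. The same held for other genes without one. A start peak was found at 53 of the 94 genes at 2i (56.4%), against 57.4% of all protein-coding genes. At D0 it was found at 58 potassium channel genes (61.7%, against 57.9% of all genes), and at D1 at 49 (52.1%, against 53.3%). At D2 the number was 71 (75.5%, against 63.1%), at D3 it was 74 (78.7%, against 64.2%) and at D4 it was 65 (69.1%, against 61.5%). In the lists up to D1 the share was near that of all genes, and from D2 to D4 it was above it.
At D5 there were 71 (75.5%, against 62.8% of all genes) and at D6 there were 68 (72.3%, against 61.2%). D7 had 73 (77.7%, against 65.8%) and D8 had 72 (76.6%, against 64.2%). At D10 there were 58 (61.7%, against 58.5%) and at D15 there were 51 (54.3%, against 57.7%). By D15 the share was again no higher than among all genes.

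**Figure D1:**
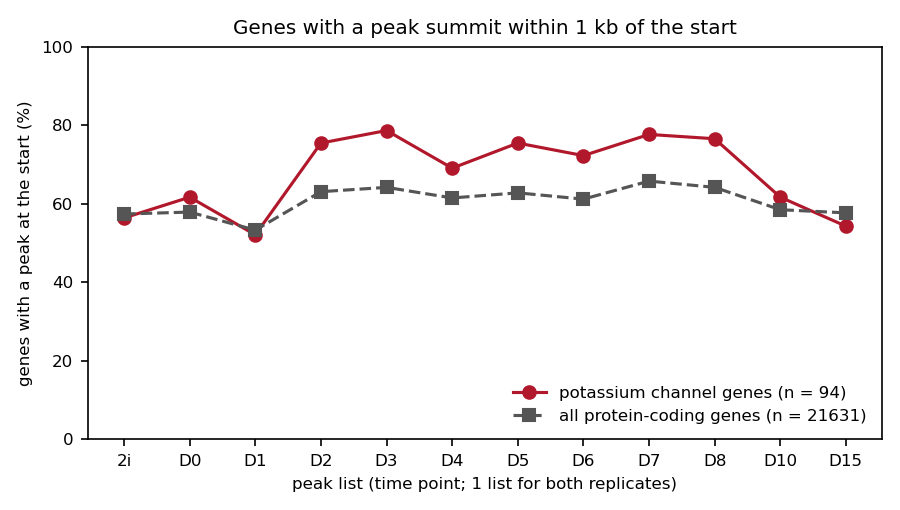
Share of genes (percent, y axis) with a peak summit within 1 kb of the start in each peak list (x axis, in the order of the time points, not to scale in time), for the potassium channel genes (circles) and all protein-coding genes (squares). The potassium channel genes stand at 75.5% at D2 and 78.7% at D3, above the 63.1% and 64.2% of all genes, and at 54.3% at D15, against 57.7%.

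The largest difference between neighbouring lists in the number of potassium channel genes with a start peak was that of D2 and D1. Of the 45 potassium channel genes without a start peak at D1, 22 had one at D2, which is 23.4% of the 94 genes, against 10.5% of all genes with that change. Counted among the genes without a start peak at D1, the shares were 48.9% of the potassium channel genes and 22.5% of all genes. No potassium channel gene with a start peak at D1 lacked one at D2, against 0.675% of all genes. The D2 list was longer than the D1 list, with 39328 against 31324 summits. Among the same number of strongest summits of each list, 67 potassium channel genes had a start peak at D2 and 49 at D1. Among the 69 genes with an annotated start, 50 had a start peak at D2 and 34 at D1, and of those without one at D1 45.7% had one at D2, against 22.1% of all such genes.
The later change ran the other way. Of the 72 potassium channel genes with a start peak at D8, 21 had none at D15, which is 22.3% of the 94, against 7.04% of all genes. Counted among the genes with a start peak at D8, the shares were 29.2% and 11%. No potassium channel gene had a start peak at D15 without one at D8, against 0.513% of all genes. The D15 list was shorter than the D8 list, with 36248 against 53633 summits, and with equal numbers of strongest summits the shares lost were 28.8% of the potassium channel genes and 8.08% of all genes.

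Start peaks that differed between the days had lower folds than those present at both. Within the D2 list, the start peaks that D1 lacked had a median fold enrichment of 5.08 at the potassium channel genes (3.10 to 6.76, 22 genes), against 6.64 at the 49 potassium channel genes with a start peak at both days. Among all genes the same medians were 4.92 and 8.78. Fold enrichments are the authors' values for single peaks of a list. Their level differed between lists, with a median over all start peaks of 6.67 at D1 and 14.2 at D3, so folds of a region in several lists are given as each list's value and show no change between lists. Within the D8 list, the median was 4.37 for the potassium channel genes without a start peak at D15 and 6.80 for those that had one at D15, against 4.30 and 10.4 for all genes.
Split by fold at D8, the loss by D15 was 9 of 12 potassium channel genes with a fold below 4, against 68.0% of all such genes. It was 5 of 21 for folds of 4 to 6, against 36.5% of all genes, 6 of 24 for folds of 6 to 9, against 7.58%, and 1 of 15 for folds of at least 9, against 0.576%. The share without a start peak at D15 was higher among the potassium channel genes in 3 of these 4 fold ranges and lower from 4 to 6; these small counts were compared after the data were seen, and the difference was not tested.

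By role, the number of genes with a start peak was higher at D2 than at D1 in each group but the 10 silent modifier genes. The share of all genes also rose, from 53.3% at D1 to 63.1% at D2, and was 64.2% at D8 and 57.7% at D15. Start peaks were found at 22 voltage-gated pore genes at 2i, 20 at D1, 28 at D2, 28 at D8, 24 at D10 and 21 at D15. Of the 10 such genes without a start peak at D1, 8 had one at D2, against 22.5% of all genes without one at D1. The same change was seen at 6 of 12 accessory, 3 of 7 tandem-pore (Kcnk) and 3 of 3 calcium- or sodium-activated pore genes. It was seen at 2 of 9 inward rectifier and 0 of 4 silent modifier genes. Of 17 accessory genes 6 had a start peak at 2i, 5 at D1, 11 at D2, 13 at D8, 10 in the D10 list and 7 in the D15 list. Of 15 inward rectifier genes 6 had one at 2i, 6 at D1, 8 at D2, 8 at D8 and 4 in each of the D10 and D15 lists.
The 14 tandem-pore genes (Kcnk), whose channels carry leak current, had a start peak at 9 genes at 2i, 7 at D1, 10 at D2, 13 at D3, 11 at D8 and 8 at D15. Of the 8 calcium- or sodium-activated pore genes 4 had one at 2i, 5 at D1, 8 at D2, 4 at D4, 6 at D8 and 5 at D15. Among the 10 silent modifier genes (Kcnf, Kcng, Kcns and Kcnv), whose products change other voltage-gated channels but form no channel on their own, the number stayed at 6 or 7 in all 12 lists.

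**Figure D2:**
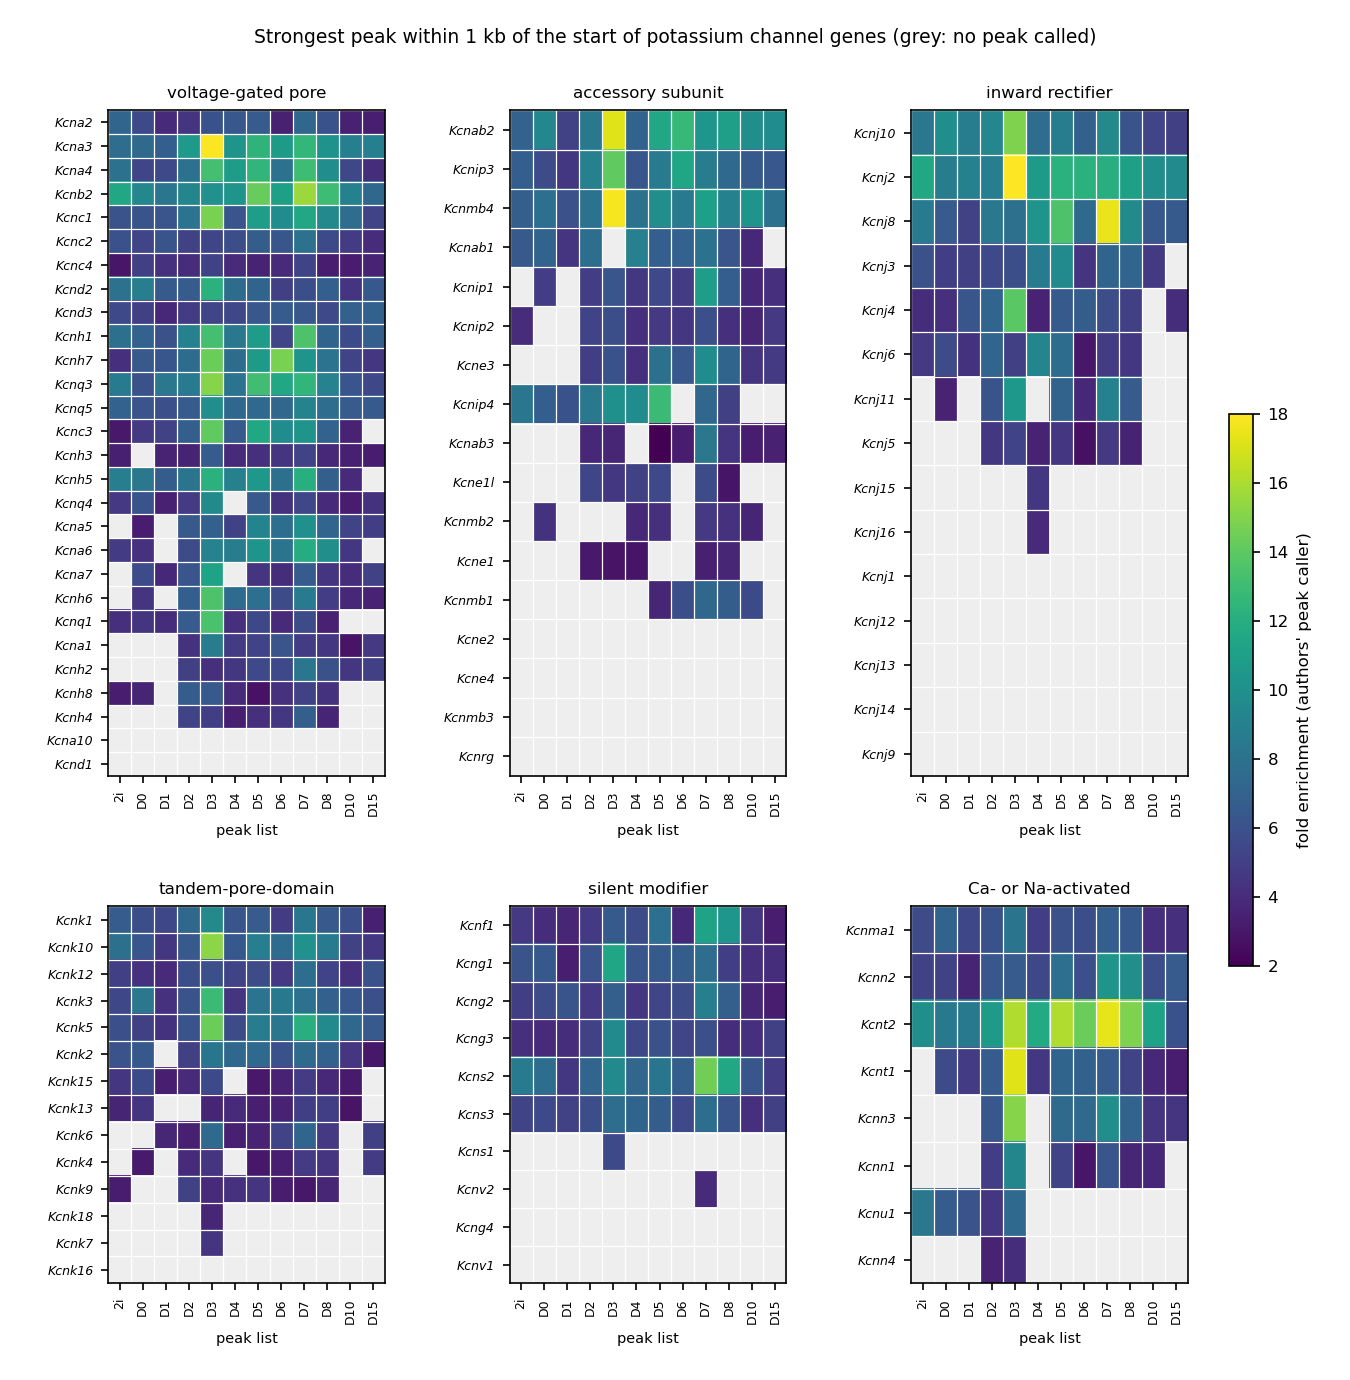
Fold enrichment (colour, the authors' value) of the strongest peak within 1 kb of the start of the potassium channel genes drawn (rows, grouped by role and sorted by the number of lists with a peak) in each of the 12 peak lists (columns). Grey means that no peak was called. Among the inward rectifier genes 4 have a start peak at D15, and 6 of the 10 silent modifier genes have one in all lists.

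A start peak in all 12 lists was found at 34 potassium channel genes (36.2%, against 47.1% of all genes), and in no list at 14 (14.9%, against 28.8%). The remaining 46 had one in some lists. With a −log10 q of at least 5, or among equal numbers of strongest summits, 17 and 25 of the 94 genes had a start peak in all lists. Of all 21631 genes, 8112 and 9130 did so under these settings. The 14 without were Kcna10, Kcnd1, Kcne2, Kcne4, Kcng4, Kcnj1, Kcnj9, Kcnj12, Kcnj13, Kcnj14, Kcnk16, Kcnmb3, Kcnrg and Kcnv1. Of these, Kcnd1, which encodes a transient outward pore, had a region just outside the window, 1.10 kb left of the gene body, in every list from D2 to D8. At D6, however, no summit was given to Kcnd1.
A start peak present at D10 and D15 and absent from 2i and D0 was found at 5 potassium channel genes (5.32%, against 2.29% of all genes): Kcna1, Kcnab3, Kcne3, Kcnh2 and Kcnn3. The converse held for 6 (6.38%, against 2.20%), among them Kcnh8, Kcnip4, Kcnj6, Kcnq1 and Kcnu1. Another 5 (5.32%, against 3.4%) had a start peak in 2 or more neighbouring mid-course lists (D1 to D8) and in no earlier or later list: Kcne1, Kcne1l, Kcnh4, Kcnj5 and Kcnn4. Kcne1 and Kcne1l are accessory subunits and Kcnn4 a calcium-activated pore. Among the genes named in these sets, Kcna1, Kcnab3, Kcnq1, Kcnu1 and Kcne1 have no start in the promoter table. For them a peak at either gene end counted, so it may not lie at the start. Kcnu1 was given no summit at D1 and D2, although it had a start peak there, so the summit counted was given to another gene. The Kcnh2 start lies inside its gene body, whose 5′ end had a peak in every list.

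Of the 23 potassium channel genes known for the cardiac action potential, 10 had a start peak in every list (43.5%, against 47.1% of all genes) and 2 in none (8.70%, against 28.8%). A start peak was present at 14 of them in 2i (60.9%, against 57.4%) and 12 in the D1 list (52.2%, against 53.3%). The D2 list had one at 21 (91.3%, against 63.1%), as did the D8 list (91.3%, against 64.2%). The D10 list had one at 17 (73.9%, against 58.5%) and the D15 list at 16 (69.6%, against 57.7%). The transient outward pores Kcna4, Kcnd2 and Kcnd3, the voltage-gated pore Kcnc4, the inward rectifiers Kcnj2 and Kcnj8, the leak channels Kcnk1 and Kcnk3 and the calcium-activated pore Kcnn2 were among those with a start peak in every list. Kcnk3 and Kcnn2 have no start in the promoter table, so either gene end counted for them.
Kcnh2, the pore of the rapid delayed rectifier, had, list by list from 2i to D15, 3, 1, 2, 5, 12, 4, 6, 8, 10, 11, 5 and 8 summits. Its lists from D2 on held more summits than the 3 before. Among equal numbers of strongest summits D4 had 2, no more than D1. The region at its promoter (chr5:24329184-24330321), which holds the printed sequence, was called at every day from D2 to D15, with folds between 4.20 at D3 and 8.25 at D7. A region at the right end of the gene, its 5′ end (chr5:24351206-24353058), 22.5 kb before that start, was held by all 12 lists. Another region inside the gene (chr5:24321866-24322926) was called from D3 to D8, with a fold of 3.95 at D3 and 8.45 at D8, and not at D10 or D15.

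Kcnq1, the pore of the slow delayed rectifier, had both early-lost and late-gained regions. It had, list by list from 2i to D15, 6, 8, 4, 7, 9, 6, 6, 11, 13, 18, 11 and 10 summits. The region at its left annotated end (chr7:143106668-143107752) was called from 2i to D8, with a fold of 4.24 at 2i and 13.4 at D3, and not at D10 or D15. A region 10.6 kb right of the gene (chr7:143437543-143438668) had the same lists. Inside the gene, a region at chr7:143389218-143390125 was called at D7, D8, D10 and D15 with folds of 3.38, 4.83, 5.79 and 7.45. A neighbour (chr7:143394992-143396061) was called in the same 4 lists, and another (chr7:143363928-143365422) at D8, D10 and D15. The strand, exons and introns of Kcnq1 are not in the tables used, so the left end is named only as an end.
Kcne1, the accessory subunit of Kcnq1 in the slow delayed rectifier, had a start peak at D2, D3, D4, D7 and D8, with folds of 2.87 to 3.69. Kcne3, a related accessory subunit, had a single region, at its start (chr7:100178283-100179191), in all 9 lists from D2 to D15, with folds between 4.19 at D4 and 9.78 at D7. Kcne2 had no start peak, and 3 summits in all.

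The transient outward pore gene Kcnd3 had a start peak in every list and regions of fewer lists elsewhere. Its start region (chr3:105450744-105453198) was held by all 12 lists. Summits numbered, list by list from 2i to D15, 3, 2, 1, 4, 2, 15, 8, 7, 12, 11, 2 and 7, so D4, D7 and D8 held the most. A region 69.6 kb into the gene (chr3:105520974-105521914) was called from D5 to D15, with folds, in the order of these 6 lists, of 3.08, 5.28, 13.6, 7.24, 4.91 and 4.48. A region 28.2 kb before the start (chr3:105423230-105424080) was called from D4 to D8, with folds of 4.17 to 10.6. Kcnip2, which encodes the partner of Kcnd pores in the ventricle, had a start peak at 2i and in all lists from D2 to D15, and none at D0 and D1. Kcna5, the ultrarapid delayed rectifier pore of human atria, had a start peak at D0 and at every day from D2 to D15, and a region 24.6 kb right of the gene (chr6:126559829-126560482) at D7, D8, D10 and D15.

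Among the inward rectifiers, Kcnj3 and Kcnj5 encode the subunits that together form the acetylcholine-gated channel of atrial cells. Kcnj5 had no summit before D2, then, list by list from D2 to D15, 1, 2, 3, 2, 3, 5, 4, 0 and 1. Its start region (chr9:32344045-32344934) was called at every day from D2 to D8, with folds of 2.71 to 5.20. Kcnj3 had, list by list from 2i to D15, 4, 5, 5, 4, 2, 7, 5, 1, 5, 4, 1 and 0 summits, and its start peak was called in all lists but D15. At D15 neither gene had a start peak.
Kcnj8 and Kcnj11 encode pores of ATP-sensitive channels. Kcnj8 had a start peak in all lists, and a region inside the gene (chr6:142567278-142567877) was called at D8, D10 and D15, with folds of 5.22, 5.57 and 3.89. Kcnj11 had a start peak at D0, D2, D3 and D5 to D8 and none at D10 or D15. It has no start in the promoter table, so either gene end counted. Kcnj12, a strong inward rectifier like Kcnj2, had no start peak in any list, and 31 summits elsewhere. Kcnk2, a stretch-sensitive leak channel, had a start peak in every list but D1, with folds between 3.05 at D15 and 8.21 at D3.

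Kcnn3, a small-conductance calcium-activated pore, had the most transient regions and shared the most late-gained ones. It had, list by list from 2i to D15, 1, 0, 0, 3, 4, 1, 2, 5, 13, 14, 3 and 5 summits. Its start region (chr3:89519607-89520502) was called at D2, D3 and D5 to D15, with folds between 4.39 at D10 and 15.1 at D3. A region 93.8 kb into the gene (chr3:89613593-89614384) was called at D7, D8, D10 and D15 with folds of 10.7, 8.86, 7.23 and 5.75. Kcnn2, its relative, had, list by list from 2i to D15, 5, 8, 6, 5, 4, 8, 10, 5, 11, 6, 7 and 6 summits. Its numbers at D10 and D15 lay within the range of the lists up to D1.

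Overlapping peaks of all lists were merged into 128679 regions, of which 752 held a summit of a potassium channel gene. A region held by all 12 lists was found at 41 of the 94 genes (43.6%, against 51.3% of all genes), with 46 such regions. Kcng2 had 3, and Kcnip4, Kcnk12 and Kcnn2 had 2 each. Late-gained regions, held by D10 and D15 and by neither 2i nor D0, numbered 19 at 15 genes (16%, against 13.9% of all genes), with 3 each at Kcnn3 and Kcnq1. The other 13 genes had 1 each, among them Kcna5, Kcnab1, Kcnab3, Kcnd3, Kcne3, Kcne4, Kcnh1, Kcnh2, Kcnh6, Kcnip1, Kcnj8 and Kcnq5. The strongest of them at D15 was at Kcnab1, an accessory subunit of Kcna pores (chr3:65360061-65361466), called from D5 to D15 with a fold of 4.88 at D5 and 10.1 at D15.
Early-lost regions, held by 2i and D0 and by neither D10 nor D15, numbered 66 at 31 genes (33.0%, against 24.3% of all genes). Kcnt2 and Kcnip4 had 6 each, and Kcnc2, Kcnh1 and Kcnh8 had 5 each. Transient regions, held by 2 or more neighbouring lists between D1 and D8 and by no earlier or later list, numbered 126 at 59 genes (62.8%, against 34.7% of all genes). Kcnn3 had 9, Kcnd3 and Kcnip1 had 6 each and Kcnab1 had 5. Without the D7 list, the longest, there were 74 transient regions. Regions held by a single list numbered 330 at 72 genes (76.6%, against 55.9%), and the other regions had mixed lists. As shares of regions the picture differed. Of the 752 regions 16.8% were transient, against 14.7% of all regions, 8.78% were early-lost, against 9.56%, 2.53% were late-gained, against 3.80%, and 6.12% were held by all 12 lists, against 8.62%. Late-gained and early-lost regions thus made up a smaller share of regions than over the genome, while the genes with such a region made up a larger share of genes. Longer genes hold more regions, so shares of genes and shares of regions are given side by side.

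**Figure D3:**
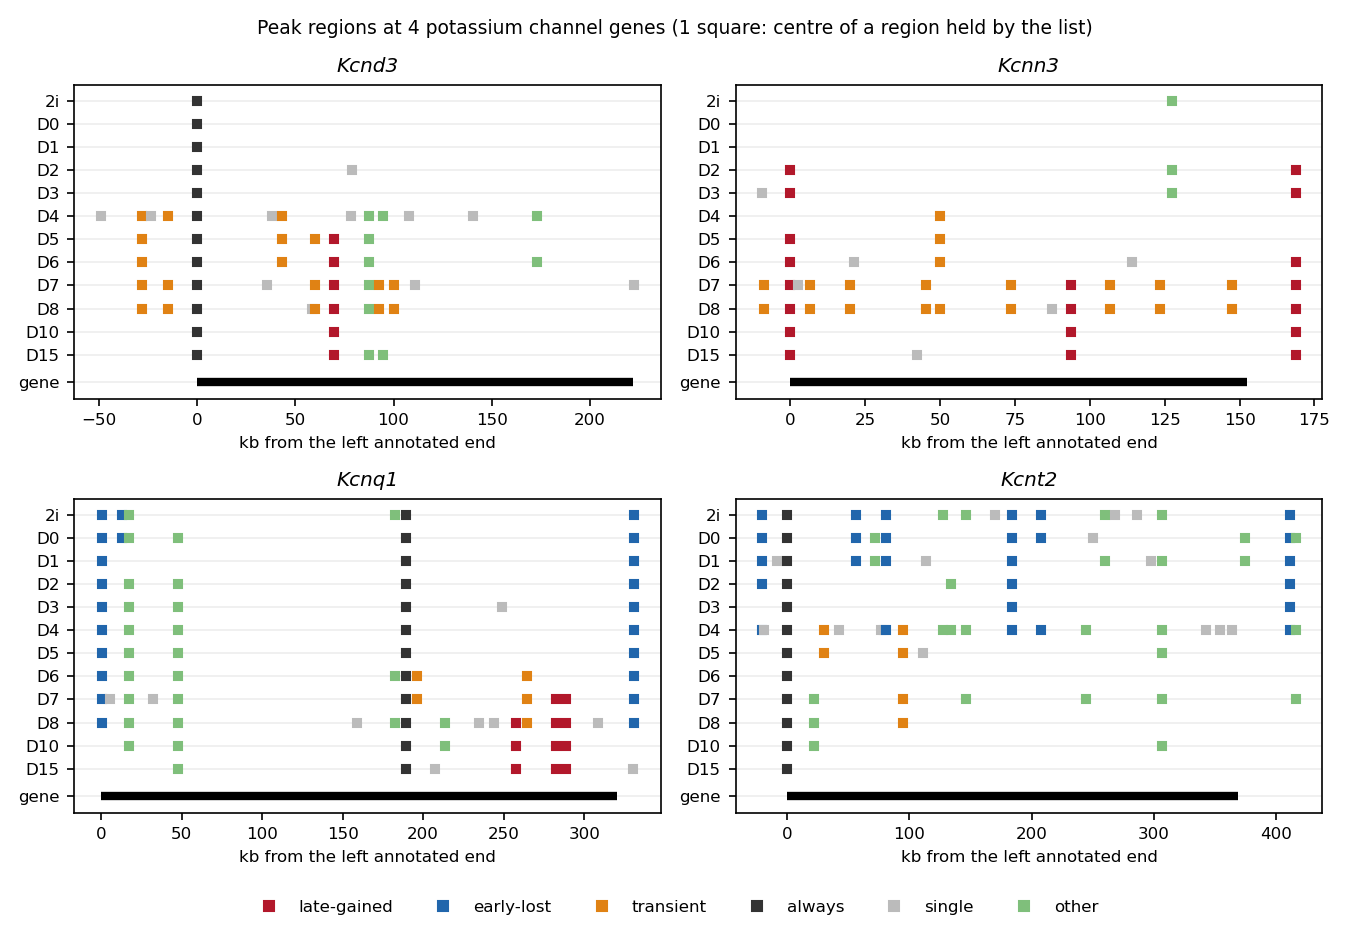
Peak regions at Kcnd3, Kcnn3, Kcnq1 and Kcnt2, drawn at their distance in kb from the left annotated end (x axis) in the lists that hold them (y axis, 2i at the top), coloured by class; the black bar is the gene body. Kcnd3 and Kcnt2 keep a region at the left end in all 12 lists, that of Kcnq1 ends at D8, and that of Kcnn3 begins at D2 and is not called at D4.

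Among the genes with most early-lost regions, Kcnt2, a sodium-activated pore, had, list by list from 2i to D15, 14, 11, 13, 7, 3, 23, 5, 2, 7, 3, 3 and 1 summits. Its highest lists were D4 and those up to D1. Its early-lost region with the highest fold at 2i, 184 kb into the gene (chr1:140428965-140429800), was called from 2i to D4 with folds of 11.7, 12.7, 10.8, 10.6, 12 and 7.5, and in no later list, while its start peak was called in all 12. Kcnip4, a partner of Kcnd pores, had the most summits of any potassium channel gene, 114, over a body of 1140 kb, with 16 at 2i, 25 at D4, 4 at D10 and 3 at D15. Kcnq1 had 109 summits, Kcnt2 92, Kcnj6 84 and Kcnn2 81.
Kcnc2, a pore of fast-spiking neurons, had, list by list from 2i to D15, 10, 9, 9, 4, 4, 12, 5, 1, 5, 2, 1 and 1 summits. Kcnj6, a G protein-gated inward rectifier, had, list by list from 2i to D15, 13, 5, 5, 9, 9, 6, 6, 5, 10, 8, 6 and 2 summits. Its start region (chr16:94997196-94997854), at the printed promoter, was called from 2i to D8, with folds between 3.00 at D6 and 9.34 at D4. Neuronal marker genes with a start peak numbered 7 of 8 at 2i and 4 at D15; the part of other cell types in these losses was not tested.

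Over all potassium channel genes, the share of a list's summits was 5.15 per 1000 in the 2i list (4.53 to 5.84, Wilson 95% interval), 5.38 in D0 (4.71 to 6.14) and 5.36 in D1 (4.61 to 6.24). The D2 list had 6.2 (5.47 to 7.03), the D3 list 6.18 (5.46 to 7.00), the D4 list 6.49 (5.86 to 7.19) and the D5 list 6.32 (5.62 to 7.11). The D6 list had 6.59 (5.77 to 7.52), the D7 list 6.18 (5.61 to 6.80) and the D8 list 6.43 (5.79 to 7.15). The D10 list had 5.09 (4.37 to 5.92) and the D15 list 4.33 (3.71 to 5.06). The interval at D15 lay below those of D2 to D8 and overlapped those of 2i, D0, D1 and D10. Intervals cover counting error only, and neighbouring summits are not independent, so they are narrower than the spread between replicates would make them. Among the 31324 strongest summits of each list, ranked by the authors' −log10 p, the share was 4.76 at 2i, 6.61 at D6 and 4.12 at D15. In this count the D15 interval, 3.47 to 4.89, lay below those of D2 to D6 alone. It overlapped those of D7, 4.85 to 6.51, and D8, 4.82 to 6.47. Which list was highest depended on the setting, with D3 highest at 6.30 among summits of a −log10 q of 5 or more, and D4 highest at 6.36 with 1 summit per interval and at 7.15 within 100 kb.

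**Figure D4:**
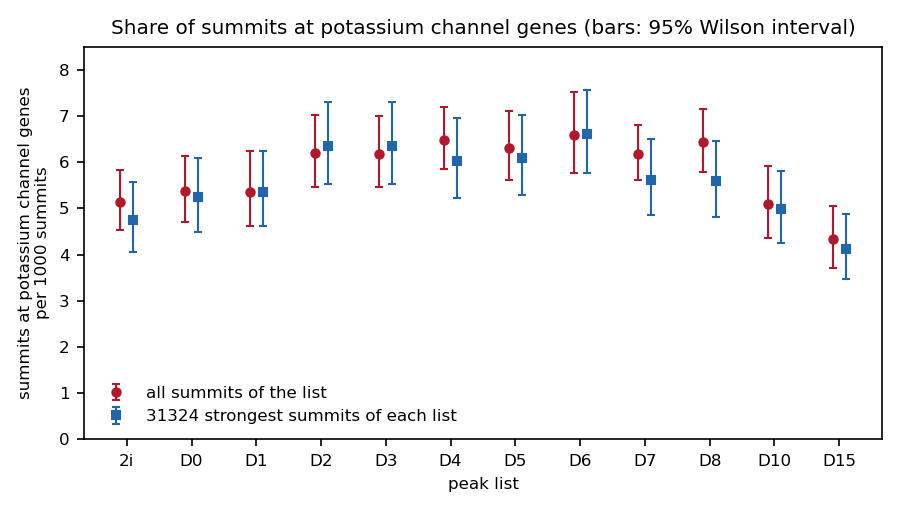
Summits at potassium channel genes per 1000 summits (y axis) in each peak list (x axis), for all summits (circles) and for the 31324 strongest of each list (squares), with Wilson 95% intervals that cover counting error only. In both counts the share is highest at D6, at 6.59 and 6.61, and lowest at D15, at 4.33 and 4.12.

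Among the strongest summits, the voltage-gated pore genes had, list by list from 2i to D15, 59, 69, 70, 76, 75, 76, 81, 81, 72, 70, 59 and 59. The Kcnc subfamily within them, known from fast-spiking neurons, had 10 at 2i, 17 at D1, 9 at D6 and 2 at D15. The accessory genes had 18 at 2i, 24 at D1, 32 in each list from D5 to D8, 28 in D10 and 19 in D15. The tandem-pore genes had 16 at 2i, 30 at D3, 29 at D6 and 10 at D15, and the inward rectifiers had 20 at 2i, 27 at D2, 21 at D8 and 13 at D15. The calcium- or sodium-activated pores had between 16 and 24 and the silent modifiers between 12 and 23. Within each role the intervals of most lists overlapped. The D15 interval of the tandem-pore genes, 0.173 to 0.588 per 1000, lay below that of D3, 0.671 to 1.37, and that of D6, 0.645 to 1.33.
Kcnmb1, an accessory subunit of the calcium-activated pore Kcnma1 in smooth muscle, lies inside the body of Kcnip1, so its 5 summits counted for both genes. It had 1 summit in each list from D5 to D10 and none elsewhere.

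**Figure D5:**
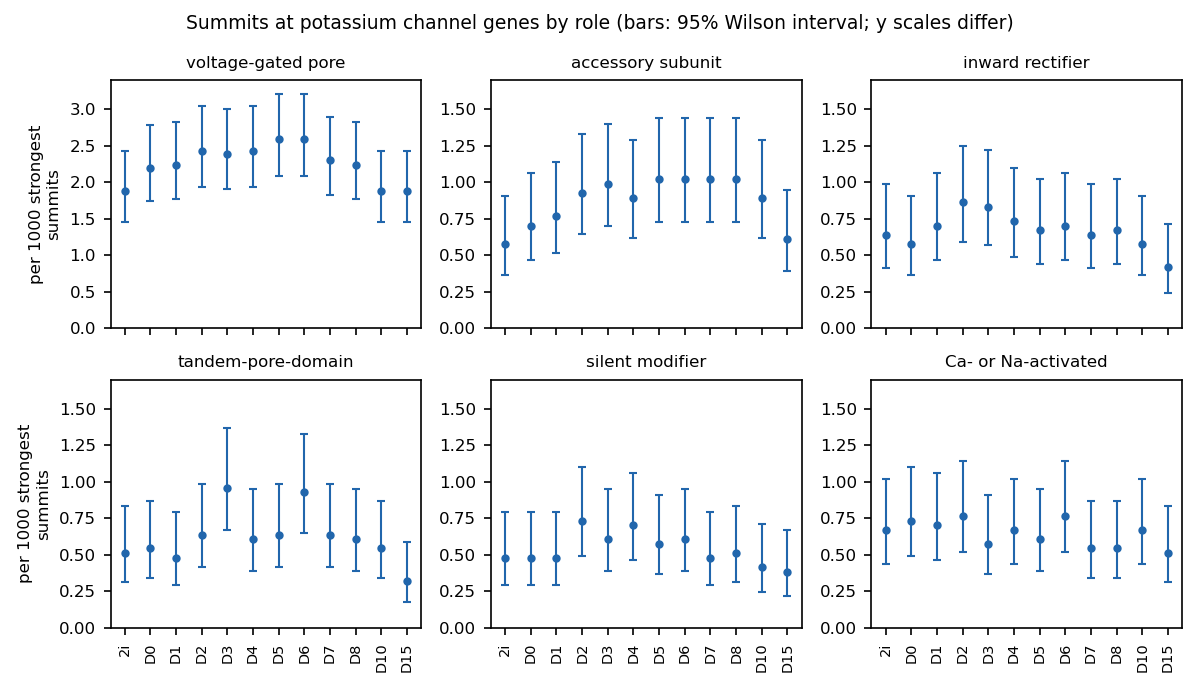
Summits at potassium channel genes per 1000 of the strongest summits of each list (y axis, scale of the first panel differs) by role of the gene product and peak list (x axis), with Wilson 95% intervals for counting error. Tandem-pore genes have 30 summits at D3, 29 at D6 and 10 at D15, and calcium- or sodium-activated pores 16 to 24.

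Whether single genes gained or lost summits with day was tested over the 11 lists with a day. Tested were the protein-coding genes with at least 5 summits among the strongest ones of these lists. For each, the number per list was correlated with day by Spearman's rho. A two-sided permutation test was used, with Benjamini-Hochberg adjustment over 14188 genes. The permutations treat the lists as exchangeable. Neighbouring days of differentiation may depend on each other, and the p-values do not allow for this. None of the 83 potassium channel genes tested passed an adjusted p of 0.05 in either direction, against 0.585% of all genes higher later and 0.338% lower later. At an unadjusted p under 0.05, 5 were higher later (6.02%, against 12.5% of all genes): Kcna5, Kcnab3, Kcne3, Kcnj8 and Kcnn3. Another 8 were lower later (9.64%, against 7.57%): Kcnc2, Kcnc4, Kcnh8, Kcnj3, Kcnj10, Kcnmb2, Kcnq3 and Kcnt2. The median rho was 0.00 for the potassium channel genes and 0.13 for all genes tested. For the 22 cardiac action potential genes tested it was 0.23, and none passed.
The 4 genes with the smallest adjusted p, named after their values were seen, were Kcnh8, Kcna5, Kcnmb2 and Kcnc2, and none passed the threshold. Kcnh8, an ether-a-go-go-like pore, had 6 strong summits at D0, 3 in each of the D1 and D2 lists, 2 at D3, 5 at D4, 2 in each of the next 3 lists and 1 in each of the last 3. Its rho was -0.89 and Pearson's r -0.72, with a permutation p of 0.00052 and an adjusted p of 0.0533 for rho. Kcna5 had none at D0 and D1, 1 at D2 and D3 and 2 in each later list, with a rho of 0.86, an r of 0.73 and an adjusted permutation p of 0.0553. Kcnmb2, an accessory subunit of Kcnma1, had a rho of -0.85 and an r of -0.79, with an adjusted permutation p of 0.0675. Kcnc2 had a rho of -0.81 and an r of -0.70, with an adjusted permutation p of 0.0845. The days farthest from the median day were D15 and, equally far, D0 and D10. Without D15 and D10, rho was -0.82 for Kcnh8, 0.90 for Kcna5, -0.91 for Kcnmb2 and -0.71 for Kcnc2, with adjusted permutation p-values between 0.176 and 0.274. Without D15 and D0, rho was -0.82 for Kcnh8, 0.84 for Kcna5, -0.77 for Kcnmb2 and -0.71 for Kcnc2, with adjusted permutation p-values between 0.246 and 0.346. For Kcna5 rho was 0 when gene bodies alone were counted, 0.46 when summits had a −log10 q of 5 or more, and 0.56 over all summits. With 2i placed before D0 as an added list, Kcna5, Kcnh8, Kcnc2 and Kcnj10 passed, which is 4.82% of the potassium channel genes tested, against 5.64% of all genes.

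The promoters differed in base composition with the number of lists that held a start peak. Of the 94 genes, 54 had a single start in the promoter table, which holds 14513 such genes. The median number of CG dinucleotides in the 300 bases was 23 for the 20 potassium channel genes with a start peak in all lists, 10 for the 24 with one in some lists and 4 for the 10 with one in none. Among all genes the same medians were 24, 11 and 2. The median GC content was 66.7%, 59.0% and 53.2% for the potassium channel genes, against 62.7%, 56.7% and 44.7% for all genes. The GC box letters GGGCGG, on either strand, occurred in 75%, 62.5% and 0% of these promoters, against 73.7%, 45.5% and 7.67% of all promoters. The letters AGATAA, which the GATA factors bind, occurred in 1 of the 54 promoters (1.85%, against 10.3% of all), and TATAAA in 3 (5.56%, against 14.4%). Among all genes AGATAA ran from 4.74% with a start peak in all lists to 18.3% with one in none. Promoters without a start peak numbered 10 of the 54 and 4744 of the 14513, and these pooled shares do not allow for that. The E-box letters CAGCTG occurred in 22.2%, against 15.2%. TTCAGCACC, part of the element that the repressor REST binds, occurred in 1 promoter (1.85%, against 0.4% of all). Neither TGACTCA nor TGACGTCA was found in the 54, against 4.57% and 2.33% of all. A match of letters is a description of the sequence and not of a bound site.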

How the data were processed

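ATAC-seq libraries of 24 samples, 2 replicates at each of 12 time points, were represented by 12 deposited peak lists in narrowPeak format. Per the submitters' processing notes, the build was mm10 and the authors' tools were MACS2 2.1.1, Picard, SAMtools 1.5, Bowtie2 2.3.2 and cutadapt 2.10; their order, settings, read shifting and how replicates were joined were not given. Each deposited peak carries a fold enrichment (a linear ratio), a −log10 p-value, a −log10 q-value and a display score, as the authors' peak caller wrote them; the score was not used. Signal tracks named in the labels were not used here.

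Gene bodies came from a RefSeq table of GRCm38.p6 and starts from its promoter table, which holds 69 of the 94 genes. Summits, merged regions and start peaks were computed with Python 3.11.15, numpy 2.4.6, pandas 2.3.3 and scipy 1.17.1. The trend test used 100000 reassignments of days and was tested on simulated data. Wilson 95% intervals cover counting error only. The genes and gene lists were chosen with earlier results of these data known. Genes named were the 23 of the cardiac action potential list, up to 5 with most regions of each class or most summits, and those whose start peak was gained or lost between 2i or D0 and D10 or D15; others were named, after their values were seen, where a count was small. Some genes that enter the counts are not reported here by name or drawn in the plot of start peaks by gene. No column was left without a time point. Alternatives changed the summit threshold, the distance limits, the lists used and the class rules.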

Additional observations from a re-analysis of the deposited data

How the results depend on the processing

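With 1 peak list per time point there is no replicate spread, read depth is unknown, and absence from a list means not called, so values limited by depth cannot be told from closed chromatin. No paired analysis was possible because both replicates share a single peak list in the labels. Of the recomputed counts and shares, 178 stayed within 1.5 times the reported count or within the interval of the reported share, and 39 moved. The 178 include trend calls that numbered 0 in both, also in settings in which no gene at all was called. In those settings the 0 among the potassium channel genes was fixed beforehand and says nothing on stability. With 1 summit per interval, 1 gene was higher later (Kcna5) and 1 lower later (Kcnh8), against 1.83% of all genes in either direction; within 100 kb, 1 was lower later (Kcnh8), against 0.335% of all genes; with 2i placed first among 12 lists, 1 was higher later (Kcna5) and 3 lower later (Kcnc2, Kcnh8, Kcnj10), against 3.12% and 2.52% of all genes. Leaving out any 1 list gave 0 calls among the potassium channel genes and 0 among all genes, against 83 higher and 48 lower with all 11 lists; the smallest adjusted p of a potassium channel gene then ran between 0.0642 without D4 and 0.123 without D1. Asking for a −log10 q of 5 or more, the share of summits was 5.72 per 1000 at D6 and 3.50 at D15, and with gene bodies only it was 4.91 and 3.17; D6 stayed above D15 in both, but with the stricter q D10 equalled D15. Regions in all 12 lists numbered 23 under the stricter q and 10 where a peak had to cover 50% of the region, an alternative chosen after seeing the data; late-gained regions numbered 9 and 12 under these. Late-gained regions numbered 44 when D15 by itself counted as late and 56 when D10 did. Early-lost regions numbered 37 with equal numbers of strongest summits, 36 with the stricter q, 124 when 2i by itself counted as early and 111 when D0 did. Transient regions numbered 60 with equal numbers, 40 where 3 consecutive lists were asked for and 74 without D7. Single regions numbered 195 with equal numbers and 171 with the stricter q. Start peaks in all 12 lists were found at 17 of the 94 genes with the stricter q, against 8112 of all 21631 genes. The cause of these differences was not tested, apart from the fewer peaks that stricter rules leave. An overlap of 50% of the peak, planned for regions, was not run, since each peak lies wholly inside its merged region.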

Other observations

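Of 25 genes that encode partners of potassium channels or other channels of the cardiac action potential, 12 had a start peak in every list (48.0%, against 47.1% of all genes), among them Cacna1c, the L-type calcium channel, and Hcn4, the pacemaker channel. A start peak was present at 16 genes at 2i (64.0%, against 57.4%), 24 at D7 (96.0%, against 65.8%) and 17 at D15 (68.0%, against 57.7%). Slc8a1, the sodium-calcium exchanger, had a start peak at every day from D5 on, and Scn4b, a sodium channel subunit, at D2, D3 and D5 to D15. Dpp6 and Dpp10, which encode partners of Kcnd pores, had one from 2i to D8, and Dpp10 had 9 early-lost regions. Abcc8, the partner of Kcnj11, had a start peak at D2, D3 and D5 to D8, within the lists in which Kcnj11 had its own. Neither gene has a start in the promoter table, so either gene end counted and these peaks may not lie at the starts. In the trend test, 1 of the 24 tested passed, Scn10a, with a rho of 0.90 and an adjusted permutation p of 0.0473, against 0.585% of all genes higher later. This call was lost when any 1 list was left out, with all summits, among summits of a −log10 q of 5 or more and over gene bodies only, settings in which no gene was called higher later. Cacna1c had 5 late-gained regions and a rho of 0.83, with an adjusted permutation p of 0.0747.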
